A study of Mus musculus with 4 samples.

Results

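The genes described here are 10 genes of apoptotic cell clearance, taken by symbol from the 4 count files of cultured microglia, which list 56832 genes each. They are the TAM receptor tyrosine kinase genes Axl, Mertk and Tyro3, the genes of the secreted bridging proteins Gas6, Pros1 and Mfge8, the receptor gene Timd4, and the engulfment signalling genes Elmo1, Dock1 and Gulp1. All 10 symbols were found. The samples are microglia, the resident macrophages of the brain, from primary glial cultures of C57BL/6 mice, labelled female, with no treatment or genetic change named in the labels. Cells were dissociated with trypsin and sorted, and their RNA was sequenced in 4 libraries that form 1 group (cMG, replicates 1 to 4). The labels used here name neither the age of the mice nor the stain and gates of the sort. In the series these cells stand beside blood progenitor cells and co-cultures of those cells with glia, which were not analysed here, so there is no contrast between conditions.

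Clearance of dying cells, or efferocytosis, begins when phosphatidylserine appears on the outer face of the dying cell's membrane. The vitamin K-dependent proteins GAS6 and protein S (encoded by Pros1) bind that lipid with one end and a TAM receptor with the other, and so link the corpse to the phagocyte. MFGE8 links phosphatidylserine to integrins, and TIM-4 (encoded by Timd4) binds the lipid directly. Inside the phagocyte, ELMO1 and DOCK1 act as a pair to activate the GTPase RAC1, which drives the membrane around the corpse, and GULP1 is an adaptor related to CED-6 of the worm Caenorhabditis elegans. In the mouse brain AXL and MERTK are known as the TAM receptors of microglia, and TYRO3 as the TAM receptor of neurons.

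The libraries held between 23212183 and 28469813 gene counts. The 10 microglia markers, among them Cx3cr1, Tmem119 and Csf1r, were all at 1 CPM or more (CPM, counts per library scaled to the same sum) in every library and all averaged 100 TPM or more. TPM is a level corrected for gene length and scaled to a common total, and it is the scale on which different genes are compared below. Of the 10 markers of other tissue-resident macrophages, Lyve1, Cd163 and Vsig4 had 0 counts in all 4 libraries, while Pf4 averaged 309 TPM and Mrc1 295 TPM. The label of sex was not borne out by every marker: the female transcript Xist averaged 300.2 CPM ± 42.9 (SD, n = 4), and the Y-linked Ddx3y was also present, at 36.2 CPM ± 5.44. Nothing in the labels says that the libraries came from separate cultures. Each SD and p-value of spread measures only how far these 4 libraries differ, which can be technical in part or whole. The exact permutation p-values of gene pairs concern only the sign of a difference between genes in these libraries. In bulk RNA fewer cells of a type and less RNA per cell cannot be told apart.

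The promoters of the 4 receptor genes are shown here because their transcript levels, given next, spanned the whole range of the 10 genes. Each is the 300 bases from 250 before to 50 after a start site in RefSeq (GRCm38.p6, not the build on which the reads were counted), 5′ to 3′ on the strand of the gene. Capitals mark matches on either strand to the GC box GGGCGG, the PU.1 core GAGGAA or the TATA box TATAAA. Matches may overlap, as they do in Tyro3.
Axl (chr7:25788684-25788983, minus strand): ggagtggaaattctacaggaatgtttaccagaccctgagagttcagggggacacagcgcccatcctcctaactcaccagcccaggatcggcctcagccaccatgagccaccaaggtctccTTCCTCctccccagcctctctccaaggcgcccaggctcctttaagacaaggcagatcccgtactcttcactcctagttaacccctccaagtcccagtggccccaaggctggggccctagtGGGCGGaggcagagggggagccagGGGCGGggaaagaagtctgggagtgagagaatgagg
Mertk (chr2:128698665-128698964, plus strand): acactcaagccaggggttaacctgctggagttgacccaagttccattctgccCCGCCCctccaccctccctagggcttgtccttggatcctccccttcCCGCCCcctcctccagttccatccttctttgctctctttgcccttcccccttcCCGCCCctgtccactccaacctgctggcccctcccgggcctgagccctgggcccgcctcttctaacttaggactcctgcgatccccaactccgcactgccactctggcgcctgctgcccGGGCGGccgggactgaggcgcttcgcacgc
Tyro3 (chr2:119799264-119799563, plus strand): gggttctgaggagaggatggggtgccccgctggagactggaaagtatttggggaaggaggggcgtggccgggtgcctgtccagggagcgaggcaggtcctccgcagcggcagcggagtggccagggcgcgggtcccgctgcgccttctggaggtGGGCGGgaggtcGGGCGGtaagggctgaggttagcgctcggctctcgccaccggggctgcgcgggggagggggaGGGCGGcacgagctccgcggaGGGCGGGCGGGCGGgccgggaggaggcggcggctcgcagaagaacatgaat
Timd4 (chr11:46810549-46810848, plus strand): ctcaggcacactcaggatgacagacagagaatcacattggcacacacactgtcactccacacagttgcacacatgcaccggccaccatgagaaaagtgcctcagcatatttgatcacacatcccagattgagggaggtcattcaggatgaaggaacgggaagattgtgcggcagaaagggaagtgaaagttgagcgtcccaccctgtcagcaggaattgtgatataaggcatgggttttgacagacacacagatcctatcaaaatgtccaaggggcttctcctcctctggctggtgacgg

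Of these 4 windows, Axl held 2 GC boxes and 1 PU.1 core, Mertk 4 GC boxes, Tyro3 6 GC boxes, and Timd4 no match to any of the 3 motifs. Tyro3 had 31 CpG dinucleotides and a GC content of 73.3%, Mertk 14 CpG and 66.0%, Axl 6 CpG and 60.3%, and Timd4 5 CpG and 50.7%. The median over all 32851 RefSeq promoter windows was 7 CpG and 52.7%. Among those windows 35.7% held a GC box, 28.3% a PU.1 core and 13.6% a TATA box. Promoter windows were found for all 10 genes, with 2 for Elmo1. The one of the 2 that lies upstream (chr13:20090257-20090556, plus strand) was the only window of the 10 genes with a TATA box, and it held 2 PU.1 cores and 3 GC boxes. These matches describe letters only. Which start sites the cells used was not measured.

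Transcripts of the TAM receptors were unequal, with Axl well above Mertk and Tyro3 near 1 TPM. Axl, which encodes a receptor that GAS6 activates, was at 698, 649, 651 and 583 TPM in replicates 1 to 4. Mertk, whose product is a main receptor for corpse uptake by macrophages, was at 123, 119, 117 and 124 TPM in the same order. Tyro3, the third member of the family, was at 1.13, 1.63, 1.43 and 0.992 TPM, from 52 to 70 counts per library. The ranges of the 3 genes did not overlap, and replicate 4 was the lowest library for Axl and the highest for Mertk.

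Axl averaged 645 TPM ± 47.3 (SD, n = 4) and stood at rank 202 of 21187 protein-coding genes. Mertk averaged 120.8 ± 3.50, at rank 1297, and Tyro3 1.30 ± 0.288, at rank 10931. Of the summed TPM of the 3 receptors, Axl took 82.3% to 84.9% in the 4 libraries, Mertk 15.01% to 17.5% and Tyro3 0.137% to 0.211%. Mertk lay below Axl by a log2(TPM + 1) difference of -2.40 ± 0.124 (Mertk minus Axl), with Mertk at 0.177 to 0.213 of the Axl level in the 4 libraries. Axl was 399 to 617 times as high as Tyro3, and Mertk 73.2 to 125 times as high as Tyro3. No library broke the sign of any of these differences (two-sided exact permutation over sign flips, p = 0.125, adjusted p = 0.125 over 10 gene pairs). That is the smallest p that 4 libraries can give, so no gene pair here could pass 0.05. The counting interval of Tyro3 (95% exact Poisson) ran from 1.36 to 2.40 CPM in replicate 4, its lowest library, and from 2.33 to 3.77 CPM in replicate 2, its highest.

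**Figure D1:**
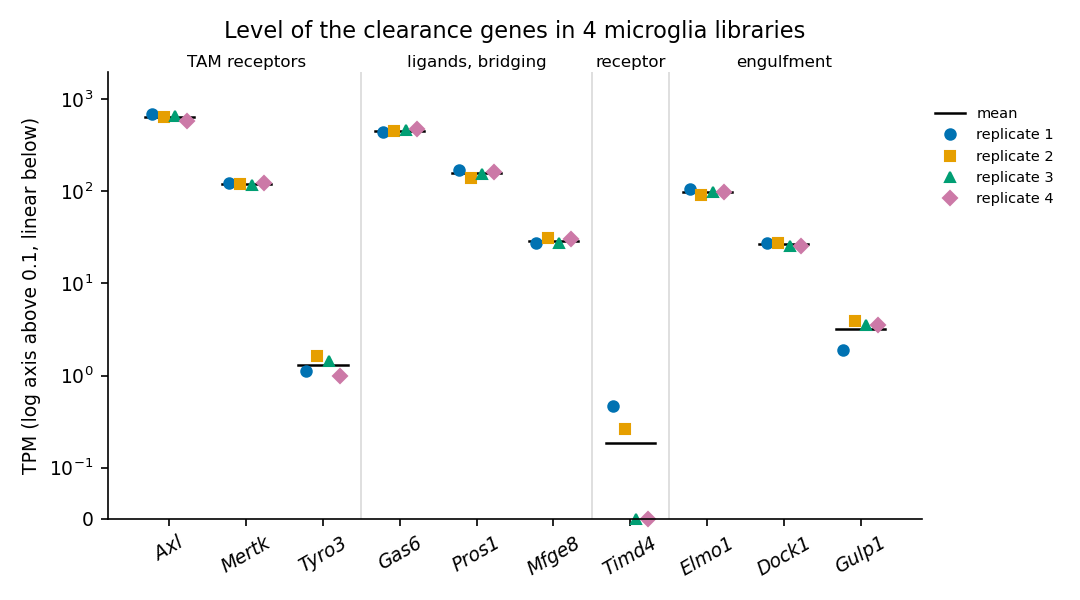
Level of each of the 10 clearance genes in TPM (log axis above 0.1, linear below), with a point for each of the 4 libraries and a black line at the mean, grouped by role. Axl (583 to 698 TPM) and Gas6 (441 to 475 TPM) lie at the top, Tyro3 lies near 1 TPM, and Timd4 is at 0 in replicates 3 and 4.

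Of the TAM ligands, Gas6 was higher than Pros1. Gas6, which encodes a ligand of all 3 TAM receptors, was at 441, 449, 468 and 475 TPM in replicates 1 to 4. Pros1, which encodes protein S, an anticoagulant that also activates MERTK and TYRO3, was at 172, 138, 156 and 163 TPM. Replicate 1 was thus the highest library for Pros1 and the lowest for Gas6. Gas6 averaged 458 TPM ± 15.9 and Pros1 157 ± 14.1, a log2(TPM + 1) difference of 1.54 ± 0.139 (Gas6 minus Pros1), positive in 4 of 4 libraries (exact permutation p = 0.125). Their ranks among protein-coding genes were 295 and 981, and Gas6 stood next after Axl in the order of the 10 genes.

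Mfge8, which encodes the bridge to integrins, was lower. It was at 27.3, 31.2, 27.7 and 30.4 TPM in replicates 1 to 4, with a mean of 29.1 ± 1.93. Mfge8 minus Gas6 gave -3.93 ± 0.0948 on the log2(TPM + 1) scale, negative in 4 of 4 libraries (exact permutation p = 0.125). With the longest transcript as gene length it was -2.94, and the TPM ratio was 0.128 in place of 0.0636. The integrin genes to whose products MFGE8 binds were uneven. Itgb5 averaged 2172 TPM ± 71.9 and Itgav 139 ± 4.50, whereas Itgb3 averaged 8.69 ± 0.492; Itgav and Itgb3 were named after their values were seen. In the list of 12 bridging proteins, the highest were the C1q chains C1qa, C1qb and C1qc, which coat dying cells, with 12624, 11747 and 5270 TPM. The lowest were Tub, at 0.146 TPM, and Tulp1, which had 0 counts in all libraries. With 3 counts as the floor, each library's 0 allows up to 0.105 to 0.129 CPM.

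Gamma-carboxylation is the vitamin K-dependent step that lets GAS6 and protein S bind membranes, and the genes of its enzymes were set beside the ligands. Of 6 genes, 5 were at 1 CPM or more in every library, against 51.8% of protein-coding genes. The epoxide reductase gene Vkorc1 averaged 136 TPM ± 12.3 and its paralogue Vkorc1l1 22.1 ± 1.33. The carboxylase gene Ggcx, named after its values were seen, averaged 13.7 ± 0.944, below Gas6 and Pros1. In the annotation used for lengths, Gm21974 overlaps 47.7% of the exon bases of Vkorc1, so its value is uncertain. In the edgeR test between libraries that is described further on, 0 of the 6 genes passed, beside 1.11% of all genes tested, and 1 had an unadjusted p under 0.05, beside 6.79% of all genes.

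Timd4 was at the floor. It had 8, 4, 0 and 0 counts in replicates 1 to 4, which is 0.296 and 0.171 CPM in replicates 1 and 2. With 3 counts as the floor, a count of 0 allows up to 0.129 CPM in replicate 3 and 0.105 CPM in replicate 4. The counting intervals of replicates 1 and 2 (95% exact Poisson) were 0.128 to 0.584 CPM and 0.0465 to 0.437 CPM. The same interval, which is wider than the floor of 3 counts, reached 0.159 CPM in replicate 3 and 0.130 CPM in replicate 4. By it the 4 intervals overlapped, though replicates 1 and 4 did so only narrowly (0.128 against 0.130 CPM). Timd4 did not reach the filter on low counts and was left out of the test between libraries. Its paralogues differed among themselves: Havcr2, which encodes TIM-3, averaged 83.5 TPM ± 4.24 and was named after its values were seen. Havcr1, which encodes TIM-1, had 4 counts in total, and Timd2 had 0 in all libraries.

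Other receptors for phosphatidylserine or for coated dying cells ranged from high levels to 0 counts. Of the 24 in that list, 16 were at 1 CPM or more in every library and 6 averaged 100 TPM or more, while 7 averaged under 1 TPM. Of all protein-coding genes, 51.8% were at 1 CPM or more in every library and 7.47% averaged 100 TPM or more. The highest were Itgb5, the lipopolysaccharide co-receptor gene Cd14 (1610 TPM ± 51.8) and the large endocytic receptor gene Lrp1 (824 ± 69.1). The scavenger receptor gene Stab1, whose product binds phosphatidylserine, averaged 752 TPM, and Mertk minus Stab1 was -2.63 ± 0.106 on the log2(TPM + 1) scale, with the same sign in all 4 (p = 0.125 by exact permutation).

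Of the engulfment genes, Elmo1 was highest, Dock1 lower and Gulp1 lowest. Elmo1, whose product holds DOCK proteins in their active form, was at 106, 91.1, 98.3 and 97.6 TPM in replicates 1 to 4. Dock1, which encodes the exchange factor first paired with ELMO1, was at 27.2, 27.6, 25.5 and 25.6 TPM. The ranges of the 2 genes did not overlap, and in CPM neither varied by more than 1.15-fold between its highest and lowest library.

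Elmo1 averaged 98.3 TPM ± 6.20, Dock1 26.5 ± 1.10 and their paralogues Elmo2 55.9 ± 3.20 and Dock2 112 ± 6.45. Dock2 encodes the DOCK protein of the haematopoietic lineage. Dock1 minus Dock2 was -2.04 ± 0.0645 on the log2(TPM + 1) scale, so Dock1 was at 0.225 to 0.249 of the Dock2 level. Elmo1 minus Elmo2 was 0.80 ± 0.138, and Dock2 minus Elmo1 was 0.19 ± 0.0739. These 3 differences kept their sign in 4 of 4 libraries (exact permutation p = 0.125 each). With the longest transcript as gene length Elmo1 minus Elmo2 was 1.498, and the TPM ratio was 2.86 in place of 1.76. Dock2 minus Elmo1 changed sign, to -0.18, when the longest transcript was used as the gene length, so the order of Dock2 and Elmo1 is not settled by these data. Elmo3, the third ELMO gene, averaged 1.07 TPM and Dock3, a nervous system gene, 0.425.

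The engulfment list held 25 genes, of which 23 were at 1 CPM or more in every library and 9 averaged 100 TPM or more. Among all protein-coding genes these shares were 51.8% and 7.47%. The GTPase genes Cdc42 (914 TPM ± 29.3) and Rhog (674 ± 36.8), whose product recruits ELMO, and the lipid exporter gene Abca1 (609 ± 43.5) were highest. The list median was 47.4 TPM ± 2.696, beside 1.68 ± 0.123 for all protein-coding genes. This list too was chosen with earlier results of these data known. Rac1, the GTPase gene on which ELMO and DOCK act, averaged 344 ± 13.2 and was named after its values were seen. In the annotation used for lengths, Daglb overlaps 51.4% of its exon bases, so its value is uncertain.

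Gulp1 had the largest coefficient of variation of the 9 genes tested between libraries. It had 56, 103, 91 and 113 counts in replicates 1 to 4, or 2.07, 4.39, 3.92 and 3.97 CPM. Replicate 1 was low and the other 3 lay close together. Its counting interval (95% exact Poisson) was 1.57 to 2.69 CPM, and the lowest bound of the other 3 was 3.16 CPM. The mean was 3.23 TPM ± 0.911, at rank 9756 of the protein-coding genes. The coefficient of variation was 28.8% over 4 libraries and 6.37% without replicate 1. Dock1 minus Gulp1 was 2.73 ± 0.371 on the log2(TPM + 1) scale, positive in 4 of 4 libraries (exact permutation p = 0.125), and the ratio of the 2 levels was 14.4 in replicate 1 against 6.99 to 7.23 in the others.

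Most astrocyte markers, like Gulp1, were lowest in replicate 1. Among the other libraries Gulp1 was highest in replicate 2 and the sum of the astrocyte markers in replicate 3. Gulp1 did not itself pass the edgeR test between libraries (unadjusted p = 0.14). The 12 astrocyte markers summed to 314, 488, 525 and 427 CPM in replicates 1 to 4, none of them was at 0 in all libraries, and 11 of the 12 were lowest in replicate 1. Of all genes tested, 35.3% were lowest in replicate 1, and 1.11% passed the edgeR test between libraries. The astrocyte genes Gfap, Slc1a3 and Clu varied between libraries beyond genes of like abundance (edgeR adjusted p = 9.9e-06, 0.015 and 0.00021), and each was lowest in replicate 1, as with Gfap at 39.8 CPM there against 56.9 to 77.3 CPM in the others. Megf10, an engulfment receptor gene of astrocytes that was named after its values were seen, was at 0.963, 3.46, 3.79 and 3.23 CPM. It did not pass the test (edgeR adjusted p = 0.13, unadjusted p = 0.0024). The part of astrocyte RNA in the Gulp1 values was not tested. Gas6 and Mfge8 were also lowest in replicate 1, by smaller deviations of -0.08 and -0.11 from their mean log2(CPM + 0.1), against -0.71 for Gulp1. Summed marker levels of other cell types spanned 252 to 277 CPM for the oligodendrocyte lineage (10 genes, Mog at 0 in all libraries) and 80.5 to 111 CPM for mural cells and fibroblasts (10 genes, none at 0 in all libraries). In the mural list Acta2 passed the edgeR test (adjusted p = 0.0041), at 42.8, 57.2, 73.5 and 45.7 CPM in replicates 1 to 4. The sums spanned 105 to 136 CPM for endothelial cells (8 genes, Tek at 0 in all libraries, sum lowest in replicate 1) and 13.3 to 17.8 CPM for neurons (8 genes, Snap25 at 0 in all libraries, sum lowest in replicate 1).

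**Figure D2:**
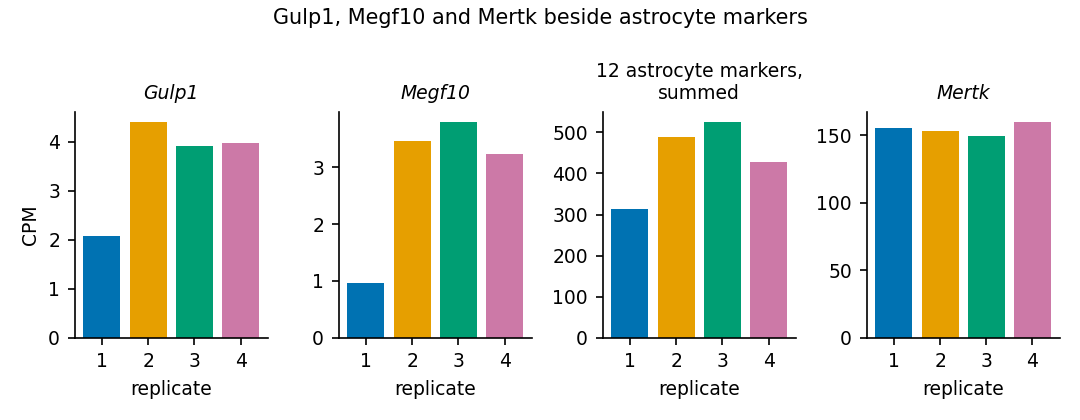
Level in CPM in each of the 4 libraries (bars, replicates 1 to 4) of Gulp1, Megf10, the sum of 12 astrocyte markers and, for comparison, Mertk. Replicate 1 is lowest in the first 3 panels (2.07, 0.963 and 314 CPM), while Mertk stays between 149.8 and 159.8 CPM.

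The libraries were then compared with each other over all genes. In edgeR each gene's deviance about a single mean was set against genes of like abundance, and 143 of 12879 genes, or 1.11%, passed at a Benjamini-Hochberg adjusted p under 0.05. The count was 47 without replicate 1 and 52 without replicate 3. Of the 10 clearance genes 9 reached the filter on low counts and 0 passed. At an unadjusted p under 0.05, 0 of the 9 and 6.79% of all genes passed. The lowest unadjusted p in edgeR was 0.14, for Gulp1 and for Pros1, and every adjusted p was 0.9999. DESeq2 marked 0 of the 9 as dispersion outliers. A miss at this threshold does not show that the genes were equal between libraries.

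The spread of the abundant members was small. Mertk had a coefficient of variation of 2.73%, where counting alone would give 1.59%. For Dock1 the values were 3.76% and 2.32%, and for Gas6 4.27% and 1.07%. Elmo1 (5.54%), Axl (6.54%), Mfge8 (7.27%) and Pros1 (8.46%) followed. The value was 3.05% for Axl without replicate 4, and without replicate 2 it was 3.93% for Pros1 and 3.55% for Elmo1. Tyro3 (22.5%, with 13.0% from counting) and Gulp1 (28.8%, with 10.5% from counting) had few counts. The median over the 9 genes was 6.54%, and over all 12879 tested genes it was 8.98%. These sets were not matched for abundance, so the medians do not show that the 9 genes were unusually steady. Of the 9, 3 were lowest in replicate 1, which is 33.3%, close to the 35.3% of all tested genes.

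**Figure D3:**
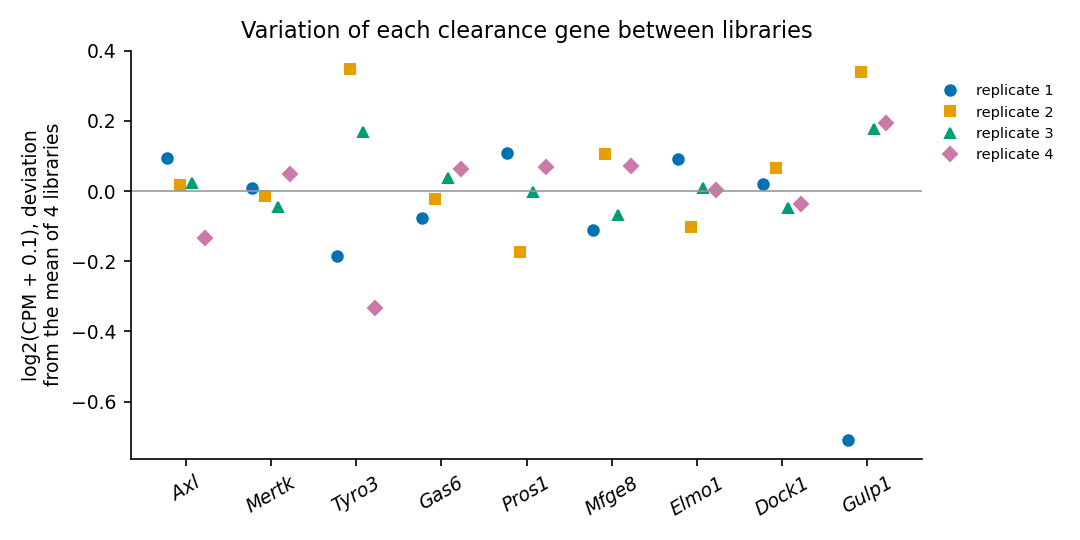
Deviation of log2(CPM + 0.1) in each library from the mean of the 4 libraries, for the 9 clearance genes that reached the filter on low counts. Most points lie within 0.2 of 0, and replicate 1 of Gulp1 lies at -0.71.

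In order of mean level the genes were Axl, Gas6, Pros1, Mertk, Elmo1, Mfge8, Dock1, Gulp1, Tyro3 and Timd4. The ranges over the libraries did not overlap between neighbours in that order, except for Mfge8 and Dock1, whose difference was 0.13 ± 0.0986 on the log2(TPM + 1) scale. With the longest transcript as gene length, Elmo1 was at 171 TPM and in the third place, above Pros1 (147) and Mertk (92.2). Mfge8 was then at 44.4 TPM. In all, 9 of the 10 genes were at 1 CPM or more in every library, against 51.8% of protein-coding genes, and 4 averaged 100 TPM or more, against 7.47% of protein-coding genes. The median of the 10 means was 63.7 TPM. The 10 genes were chosen with earlier results of these data known, so the contrast with protein-coding genes describes them only.

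Genes that act around the receptors and their ligands came from 12 lists. Together these held 146 different genes, of which 129 could be tested between libraries. Of these, 1 passed, which is 0.775%, beside 1.11% of all tested genes. It was P2ry12, a nucleotide receptor gene of microglia, at 236, 185, 164 and 249 CPM (edgeR adjusted p = 0.0010), highest in replicate 4 and lowest in replicate 3.

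TAM receptors signal through kinase adaptors and, in dendritic cells, through the interferon receptor to suppressors of cytokine signalling. Of 14 genes in that list 12 were at 1 CPM or more in every library, against 51.8% of protein-coding genes. The adaptor gene Grb2 (403 TPM ± 20.4), the kinase gene Lyn (364 ± 25.6) and the interferon receptor gene Ifnar2 (194 ± 8.01) were highest. Twist1, a repressor of cytokine genes, averaged 0.811 TPM and Twist2 had 0 counts. The suppressor genes Socs3 and Socs1, named after their values were seen, averaged 18.6 ± 2.11 and 2.87 ± 0.467 TPM.

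AXL and MERTK are shed from the cell surface by the metalloproteases ADAM10 and ADAM17. All 5 genes of the shedding list were at 1 CPM or more in every library, against 51.8% of protein-coding genes. Adam10 averaged 237 TPM ± 27.2, Adam17 135 ± 6.96 and its cofactor gene Rhbdf2 53.3 ± 1.65. Rhbdf1 averaged 23.9 ± 1.17 and the inhibitor gene Timp3, whose exon bases Syn3 overlaps by 21.3%, 15.7 ± 3.39. Of the 5 genes 0 passed the edgeR test between libraries (2 at an unadjusted p under 0.05), beside 1.11% of all tested genes that passed and 6.79% at the unadjusted p.

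Nuclear receptors that sense corpse lipids raise Mertk and Abca1 in macrophages. Of the 2 LXR genes, Nr1h2 averaged 116 TPM ± 8.34 and Nr1h3, named after its values were seen, 2.41 ± 0.203. Rxra, their partner, averaged 104 ± 5.41. The lowest of the 9 genes in the list were Ppara (0.374 TPM) and Rxrg (0.139).

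Genes that draw phagocytes to dying cells included the fractalkine receptor gene Cx3cr1 (2311 TPM), the nucleotide receptor gene P2ry6 (424 ± 9.75) and the sphingosine phosphate receptor gene S1pr1 (388 ± 10.3). The channel gene Panx1, which releases nucleotides from dying cells, averaged 3.58 TPM, and the lipid receptor gene Gpr132 0.543. Of the genes that control phosphatidylserine on the cell's own surface, the flippase subunit gene Tmem30a (85.8 ± 9.47), the scramblase gene Ano6 (38.3 ± 0.128) and the flippase gene Atp8a1 (36.6 ± 3.93) were highest. Xkr4 (0.1104 TPM) and Xkr9 (1 count in total) were lowest.

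Inhibitory receptors were led by Sirpa, whose product reads the do-not-eat signal CD47, at 1570 TPM ± 23.6. The phosphatase gene Ptpn6, which acts below it, averaged 789 ± 21.01 and Siglece, a sialic acid receptor gene, 104.5 ± 13.1. Pecam1 (0.272 TPM) and Siglecg (0.0303) were lowest. All 19 genes of corpse digestion were at 1 CPM or more in every library, against 51.8% of protein-coding genes. They were led by the mitochondrial carrier gene Ucp2 (1016 ± 43.3), the oxidase subunit gene Cybb (660.5 ± 51.3) and the cholesterol transport gene Npc2 (613 ± 30.1), with Mon1a (21.95 ± 0.952) and Atg16l1 (18.8 ± 1.24) lowest. With the longest transcript as gene length Npc2 (765 TPM) stood above Cybb (611), and Atg16l1 (36.5) above Mon1a (16.7). The highest and lowest genes of a list can thus change with the gene length used. Of the 9 tested genes that draw phagocytes to dying cells, 1 passed the edgeR test between libraries (P2ry12), beside 1.11% of all tested genes. In edgeR 0 passed of the 8 tested genes of phosphatidylserine exposure (2 at an unadjusted p under 0.05), of the 7 of inhibitory signals (1) and of the 19 of corpse digestion (0). At that unadjusted p the share of all tested genes was 6.79%.

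**Figure D4:**
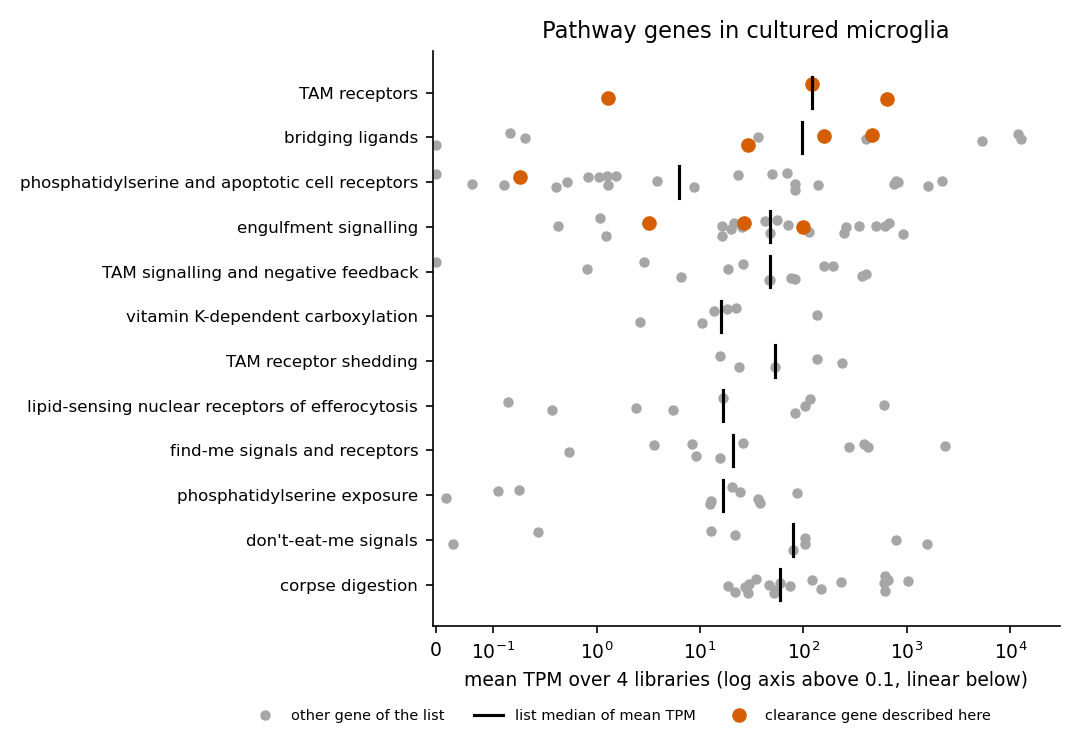
Mean TPM over the 4 libraries (log axis above 0.1, linear below) of every gene in the 12 pathway lists, 1 point per gene, with the clearance genes described here in orange and the median of each list as a black line. Within the lists of their own kind, Axl is the highest TAM receptor, Gas6 and Pros1 lie among the upper bridging ligands, and Timd4 lies among the lowest receptors.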

How the data were processed

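RNA was sequenced from 4 libraries of sorted cultured microglia. The authors deposited raw read counts per gene symbol, 1 file per library; STAR 2.7.10a, SAMtools 1.16.1, HTSeq 0.11.2 and the build GRCm39 are named in the submitters' processing notes. The annotation and strand setting are not named there, so overlapping and antisense genes may not have been told apart. The 5 summary lines (11.8% ± 0.159 of listed reads) were left out, and 0 columns belonged to no sample.

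CPM used the summed gene counts. TPM used merged exon lengths from GENCODE M21 (GRCm38), matched by symbol (89.1% of symbols), for lengths and gene types only. Intervals and floors (3 counts) cover counting error only. Spread between libraries was tested in edgeR 4.0.16 (R 4.3.3) with TMM scaling, filterByExpr, trended dispersion and a chi-square with 3 degrees of freedom, and tested on simulated data. Gene pairs were compared on log2(TPM + 1) with exact sign-flip tests. DESeq2 1.42.0 was an alternative, besides another scaling, no filter, a common dispersion, other lengths and pseudocounts, and leaving out each replicate.

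The members and lists were chosen with earlier results of these data known. The rule for naming took the 10 genes, their pair partners, the 3 highest and 2 lowest of each list, those at 0 and those past the spread test; others are said to be named after their values were seen. Some genes that the rule would name are not reported here. No library pair was identical or agreed within counting noise (chi-square of 5.17 to 13.6 per degree of freedom).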

Additional observations from a re-analysis of the deposited data

Results flagged for a closer look

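The difference between Dock1 and Gulp1 on the log2(TPM + 1) scale had 1 library far from the others: the gap between replicate 1 and its nearest neighbour was 0.976 of the whole range of the 4 libraries, above Dixon's 95% critical value. Dock1 was 14.4 times as high as Gulp1 in replicate 1 and 6.99 to 7.23 times as high in the others. Of 12 astrocyte markers 11 were also lowest in replicate 1, and their part in the result was not tested. Over 20 sets of 4 values examined, this was the 1 set past that limit, and chance flags about 1 in 20. Gulp1 alone, on the CPM scale, did not pass it, with a gap of 0.796 of its range.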

How the results depend on the processing

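No paired analysis was possible because the 4 libraries form 1 group. The number of genes varying between libraries, 143, was 532 with a common dispersion, 69 as DESeq2 dispersion outliers, and 47 to 118 when a replicate was left out (47 without replicate 1, 52 without replicate 3); the cause was not tested. With RLE size factors it was 143 and without the filter 154. Under every one of these settings 0 of the clearance genes passed; with a common dispersion Gulp1 had the lowest adjusted p (edgeR, 0.078), against a range of 0.078 to 0.9999 over its settings. Of the 80 values of 10 gene pairs under 8 alternatives each, 79 kept their direction. The exception was Dock2 minus Elmo1, which was -0.18 with the longest transcript as length. Every pair had the same sign in all 4 libraries, so leaving out a replicate or changing the pseudocount could not reverse it. Only the other treatments of gene length (longest transcript, or no length) could do so. The count of 79 is therefore no measure of how firm the directions are. With 3 libraries the smallest exact permutation p is 0.25. Depth limits Timd4, Tyro3 and Gulp1, which had 12, 238 and 363 counts in total.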
